A study of Mus musculus with 5 samples.

Results

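Nog, Grem1, Bmp6, Bmp7 and Rgmb stand on the extracellular side of bone morphogenetic protein (BMP) signalling, and were taken from the deposited tables by gene symbol: 5 genes of the 4743 listed. They were measured by RNA sequencing of forelimb muscle tissue from C57BL/6 mouse embryos at E15.5, in 3 Noggin-deficient and 2 wild type libraries. The labels name neither the Noggin allele nor the part of the gene it alters, and give no litter, sex, batch or pooling, so each p-value measures only the spread between these libraries, which may be technical. The series title sets the comparison in the question of how an unbalanced BMP and mechanical environment bears on the plasticity of the muscle lineage.

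BMPs are secreted dimers that bring type I and type II serine/threonine kinase receptors together, after which SMAD proteins carry the signal to the nucleus. Noggin and Gremlin 1 bind BMPs outside the cell and keep them from those receptors, whereas RGMB is a membrane-anchored co-receptor that helps BMPs reach them. In the developing limb, BMP signalling is known for its roles in cartilage and joint formation, in digit patterning and in the growth of fetal muscle.

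The promoters of Grem1, the member that was higher in Noggin-deficient muscle, and of Bmp6 and Rgmb, which were lower in the deposited unit, are shown to compare the letters around their starts. They run from 250 bases before to 50 bases after an annotated start, from RefSeq on build GRCm38.p6, written 5′ to 3′ along the gene's strand. The RefSeq table held such windows for 3 of the 5 members. Capitals mark 2 searched motifs, on both strands: GGCGCC, a GC-rich element known from BMP-responsive enhancers, and CAGAC with its other-strand form GTCTG, a SMAD-binding element. They do not overlap in these windows.
Grem1 (chr2:113758599-113758898, minus strand): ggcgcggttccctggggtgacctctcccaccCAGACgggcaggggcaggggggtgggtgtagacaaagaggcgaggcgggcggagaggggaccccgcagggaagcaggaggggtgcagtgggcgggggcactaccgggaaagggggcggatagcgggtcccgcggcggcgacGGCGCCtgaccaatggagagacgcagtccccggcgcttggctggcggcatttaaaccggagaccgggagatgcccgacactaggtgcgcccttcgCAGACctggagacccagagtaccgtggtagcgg
Bmp6 (chr13:38345466-38345765, plus strand): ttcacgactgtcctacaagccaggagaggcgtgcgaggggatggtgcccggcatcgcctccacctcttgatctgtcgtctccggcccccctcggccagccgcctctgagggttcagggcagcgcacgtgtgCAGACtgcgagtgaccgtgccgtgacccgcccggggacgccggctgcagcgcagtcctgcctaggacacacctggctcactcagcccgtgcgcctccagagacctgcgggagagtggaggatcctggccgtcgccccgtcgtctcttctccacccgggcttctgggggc
Rgmb (chr17:15831197-15831496, minus strand): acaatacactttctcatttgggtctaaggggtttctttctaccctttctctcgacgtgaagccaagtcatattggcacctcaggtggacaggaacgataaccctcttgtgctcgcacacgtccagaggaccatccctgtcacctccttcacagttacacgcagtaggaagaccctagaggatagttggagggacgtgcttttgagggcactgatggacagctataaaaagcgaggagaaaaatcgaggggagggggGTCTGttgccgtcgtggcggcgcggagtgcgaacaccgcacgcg
GGCGCC stood once in the Grem1 window, at base 173 from its 5′ end, and in neither of the other 2 windows shown. A second annotated Rgmb start, whose window is not shown, had 1 such match at base 230, and the third had none. Of 32851 mouse promoter windows of this length, 11.9% held GGCGCC and 49.6% held CAGAC on either strand. CAGAC or GTCTG was found 2 times for Grem1 and 1 time each for Bmp6 and the Rgmb window shown. These matches describe the letters only, and no binding was measured here.

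Against wild type muscle, Noggin-deficient muscle had less Nog, more Grem1, and modestly lower deposited values of Rgmb, Bmp6 and Bmp7. All 5 members were called by limma's moderated test at a Benjamini-Hochberg adjusted p under 0.05, 1 higher and 4 lower. That share carries no information on the members, because 98.0% of the 3913 tested genes were called, 37.9% higher and 60.1% lower. The share was 70.8% when libraries were rescaled by the median ratio of each library to the average library (median-of-ratios scaling), 38.6% higher and 32.2% lower. Rescaling to a common upper quartile gave 79.5%, 38.5% higher and 41.0% lower, and subtracting a smooth dependence on transcript length gave 72.3%, 35.2% higher and 37.1% lower. Against a 1.5-fold change 14.5% passed, 4.22% higher and 10.3% lower, and of the members only Nog did. The authors deposited a selection of genes that differ between these groups: of 3305 tested genes with a mean of at least 1, 0 lay within 0.2 log2 units of no change. Adjusted p-values over them are therefore not independent evidence of change.

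**Figure D1:**
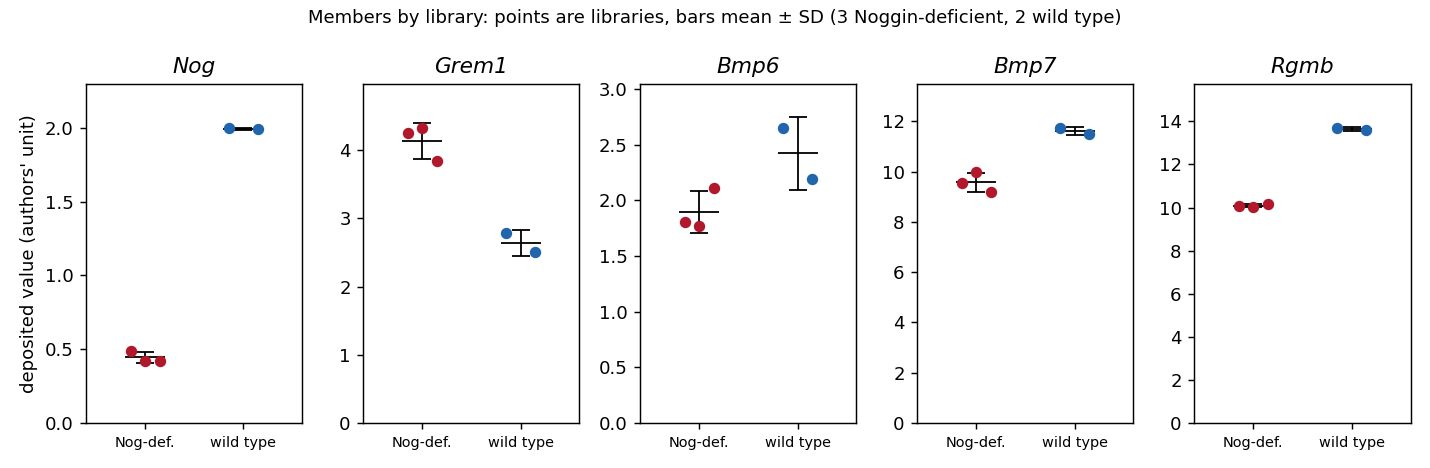
Deposited value in the authors' unit (vertical axis, from 0) of each member in each library, Noggin-deficient libraries left in red and wild type libraries right in blue, with mean and SD. Nog was near 0.4 to 0.5 against 2, Grem1 was higher in every Noggin-deficient library, and the Bmp6 groups came within 0.08 of each other.

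Nog encodes Noggin itself, so its row bears on the genotype labels. The gene lies on chromosome 11 and has 1 exon in the GENCODE annotation. Nog was at 0.49, 0.42 and 0.42 in Noggin-deficient libraries, against 2 and 1.99 in the wild type libraries. The groups were widely apart, and the Noggin-deficient libraries stayed above 0, at 22.2% of the wild type mean. In log2 units the difference was -1.70 (limma SE 0.092, adjusted p = 2.6e-06) on the log2(value + 0.25) scale, which understates it at such low values, since the ratio of the means was -2.17 on the log2 scale. Nog passed the minimum value of 0.5 through its wild type libraries alone, so it could be tested only by differing. Only 66 of the 3913 tested genes had a lower change.

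Grem1 encodes Gremlin 1, a secreted BMP antagonist of the DAN family that is best known in the limb for keeping the outgrowth signalling loop running. It lies on chromosome 2. Grem1 was at 4.25, 4.33 and 3.84 in Noggin-deficient libraries, against 2.78 and 2.51 in the wild type libraries. Each Noggin-deficient library was above both wild type libraries, with a gap of 1.06 between the groups, while the SD was 0.263 in the Noggin-deficient and 0.191 in the wild type group. The mean was 1.57 times the wild type mean, and the log2(value + 0.25) difference 0.60 (limma SE 0.073, adjusted p = 0.00013). A larger positive change was seen in 10.3% of tested genes. The change was 0.85 with median-of-ratios scaling and 0.79 with scaling to a common upper quartile. Both scalings moved the median of all tested genes up, by 0.26 and 0.19. A gene that was already higher therefore kept its direction under them by construction. The change was 0.80 once a smooth dependence on transcript length was subtracted (length adjustment). Against a 1.5-fold change Grem1 did not pass (limma adjusted p = 1.0).

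The transcripts of the 2 secreted antagonists thus moved in opposite directions. Genes of the distal limb, where Grem1 is also expressed, were higher in the same Noggin-deficient libraries. Of 8 listed markers 6 were tested and called higher, as were 37.9% of all tested genes. The summed values of the 7 in the tables ran from 11.7 to 12.3 in Noggin-deficient and from 3.33 to 3.51 in wild type libraries. None of the 7 was at 0 in any library, and the log2 changes of the 6 ran from 0.82 to 2.01, each larger than that of Grem1. Of those 6, Hoxd13, Hoxa13, Hoxd12 and Msx1 met the minimum value only through the Noggin-deficient libraries and could be called only by being higher. Cartilage, a site of Nog expression in the limb, had 5 of 12 listed markers in the tables, each called lower where 60.1% of all tested genes were, with sums from 116.8 to 118.1 in Noggin-deficient and from 148.2 to 149.5 in wild type libraries. These 5, of which none was at 0, had changes from -0.48 to -0.29, with a median of -0.35 beside -0.28 for all tested genes. Each of these changes was smaller in size than that of Nog. The 11 epidermal markers, taken up with Bmp6 below, had changes from -3.95 to -0.49, on both sides of that of Nog. The part of these tissues in the Nog and Grem1 values was not tested. In tissue libraries of this kind, fewer cells of a type and less RNA per cell cannot be told apart.

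Bmp6 and Bmp7 are closely related ligands of one BMP subgroup, and Noggin is known to bind BMP7 and to inhibit BMP6 less well. Bmp7, on chromosome 2, was at 9.56, 9.97 and 9.2 in Noggin-deficient libraries, against 11.74 and 11.51 in the wild type libraries. The Noggin-deficient libraries all lay below the wild type ones, by 1.54 at the nearest. Its log2 difference of -0.27 (limma SE 0.043, adjusted p = 0.00049) was nonetheless a small one for these tables: 89.7% of tested genes had a larger absolute change, and the median over all tested genes was -0.28.

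Bmp6, on chromosome 13, was at 1.8, 1.77 and 2.11 in Noggin-deficient libraries, against 2.65 and 2.19 in the wild type libraries. The highest Noggin-deficient and the lowest wild type library were 0.08 apart, less than the SD of 0.188 in the Noggin-deficient and 0.325 in the wild type group. With a coefficient of variation of 9.94% in Noggin-deficient and 13.4% in wild type libraries, Bmp6 was the most variable of the 5 members. The log2 difference was -0.32 (limma SE 0.104, adjusted p = 0.019). That call was lost without Noggin-deficient replicate 1 (log2 change -0.28, adjusted p = 0.059), without Noggin-deficient replicate 2 (-0.27, adjusted p = 0.058) or without wild type replicate 1 (-0.19, adjusted p = 0.15).

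Both ligands lay close to the middle of the tables. Relative to the median of all tested genes, the changes were -0.030 for Bmp6 and 0.011 for Bmp7. Median-of-ratios scaling, which moved that median by 0.26, brought Bmp6 to -0.071 (limma adjusted p = 0.59) and Bmp7 to -0.0070 (adjusted p = 0.91). Upper-quartile scaling gave -0.13 for Bmp6 (adjusted p = 0.27) and -0.075 for Bmp7 (adjusted p = 0.15), and length adjustment gave -0.16 for Bmp6 (adjusted p = 0.17) and -0.12 for Bmp7 (adjusted p = 0.035). Whether either ligand was called lower in Noggin-deficient muscle thus depended on the scaling. Each of these adjustments was computed on the listed genes, which had been selected for differing. A gene near their median moves toward 0 under them by construction, so they cannot show whether the ligands changed. Epidermis, where Bmp6 is known to be expressed, had 11 of 12 listed markers in the tables, none of them at 0. All 11 were called lower, as were 60.1% of all tested genes. The marker sums ran from 1142 to 1183 in Noggin-deficient and from 2710 to 2742 in wild type libraries. The part of epidermis in the Bmp6 and Bmp7 values was not tested.

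**Figure D2:**
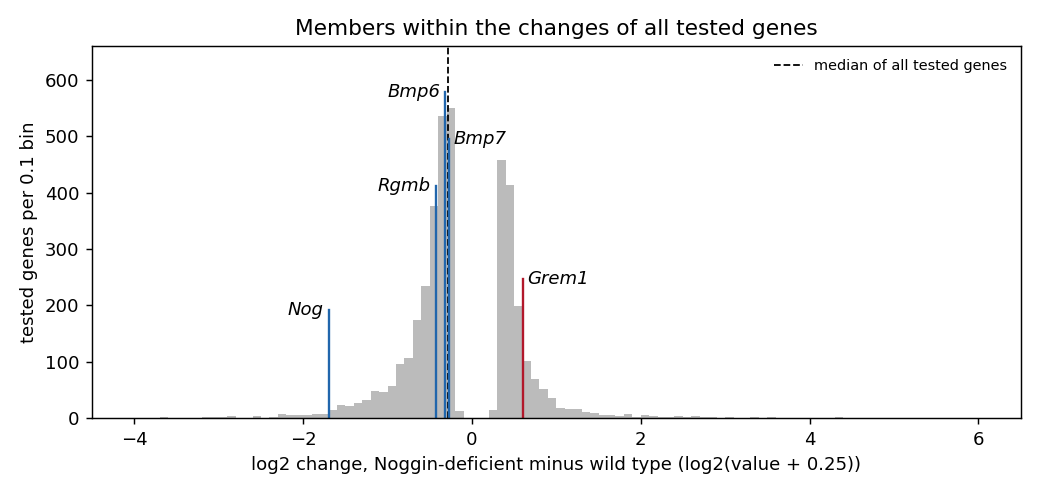
Number of tested genes (vertical axis) per 0.1 of log2 change, Noggin-deficient minus wild type (horizontal axis), with the members marked by lines whose height has no meaning. The bars leave a gap around 0, Bmp6, Bmp7 and Rgmb lie near the dashed median of -0.28, and Nog (-1.70) and Grem1 (0.60) lie farther out.

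Rgmb encodes RGMB, also called DRAGON, a lipid-anchored co-receptor of the repulsive guidance molecule family first studied in sensory neurons. It lies on chromosome 17. Rgmb was at 10.05, 10.02 and 10.16 in Noggin-deficient libraries, against 13.7 and 13.59 in the wild type libraries. Its libraries agreed closely within each group, with a coefficient of variation of 0.732% in Noggin-deficient and 0.570% in wild type libraries, and the groups were 3.43 apart. The mean was 73.8% of the wild type mean, and the log2(value + 0.25) difference -0.43 (limma SE 0.032, adjusted p = 1.2e-05). The change kept its sign and its call at -0.16 with median-of-ratios scaling (adjusted p = 0.0024), -0.23 with upper-quartile scaling (adjusted p = 0.00037) and -0.11 with length adjustment (adjusted p = 0.012), smaller in size each time. Relative to the median of all tested genes it was -0.14. Of 13 listed neuron and Schwann cell markers, 12 were in the tables and 11 tested. Of these, 4 were called lower and 7 higher, beside 60.1% and 37.9% of all tested genes. Elavl4 and Th among the 7 met the minimum value only through Noggin-deficient libraries. The marker sums ran from 55.5 to 56.6 in Noggin-deficient and from 47.1 to 47.7 in wild type libraries. The part of nerve tissue in the Rgmb value was not tested.

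For a single gene, the exact two-sided permutation test of the difference in means has 10 splits of 3 against 2 libraries and cannot go below p = 0.1. The permutation test gave p = 0.1 for Nog, Grem1, Bmp7 and Rgmb and p = 0.2 for Bmp6. The groups did not overlap for any member, as for 99.3% of all tested genes.

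**Figure D3:**
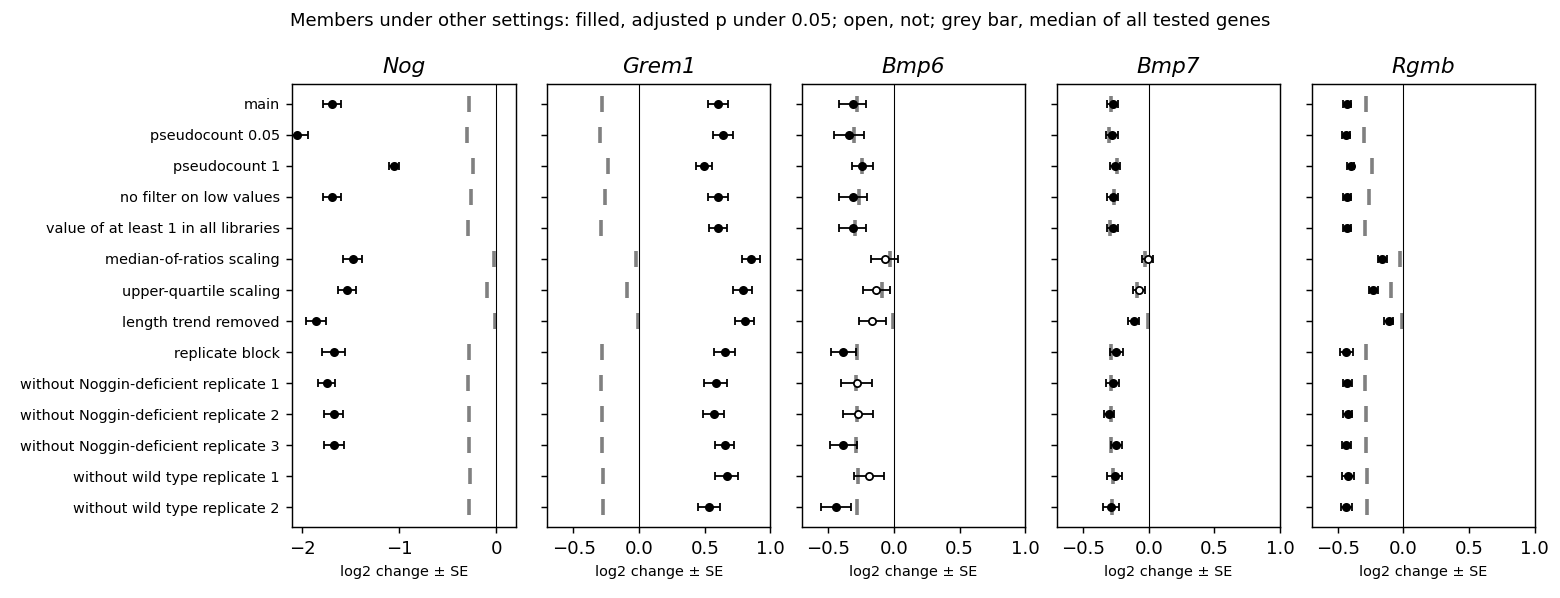
Log2 change of each member, Noggin-deficient minus wild type, with its SE (horizontal axes, a wider one for Nog) under the settings listed on the left, with filled points for an adjusted p under 0.05, open points otherwise and a grey bar for the median of all tested genes. Nog and Grem1 stay clear of that median in each row with a point, whereas Bmp6 and Bmp7 lie near it in most rows.

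The genes with the profiles most like each member were sought among 3180 tested genes with a mean of at least 1, by the root-mean-square distance between log2 values centred on each gene's mean over the 5 libraries. A smaller distance is a closer profile. Slc10a6, a carrier of sulfated steroids, was nearest to Nog at 0.031, followed by Stfa1, a stefin, at 0.038 and the desmosomal cadherin Dsc1 at 0.043. Nearest to Grem1 were Ddt, D-dopachrome tautomerase, at 0.025, Crabp2, a retinoic acid binding protein, at 0.039 and Prelid2 at 0.043. Crabp2 was at 36.43, 37.55 and 34.49 in Noggin-deficient libraries, against 23.43 and 22.31 in the wild type libraries, the same order of libraries as Grem1. Ddt and Prelid2 had that order too, and being picked for a near profile favours it. For Bmp6 they were Pigf, Ncf1 and Mst1r at 0.033 to 0.052. Profiles closest to Bmp7 were those of Ldlrad3, Maml3 and Svil, at 0.0095 to 0.016, and to Rgmb those of Irs1, the insulin receptor substrate, Prkaca, a catalytic subunit of protein kinase A, and Atl3, at 0.0084 to 0.012. The distance takes in the size of the change as well as the spread within groups, and the listed genes had been selected for such changes.

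The rest of the pathway was followed through 6 lists holding 95 gene symbols, of which 36 were in the tables and 31 were tested, 15 called higher and 16 lower. The other 59 symbols were not analysed here, among them the 5 SMAD transducers and ubiquitin ligases. They include Bmp3b, another name of Gdf10, which was tested under that symbol. Fstl3, Gdf2, Gdf5, Gdf6 and Acvr1c were in the tables but below the minimum for testing. Over all tested genes the calls were 37.9% higher and 60.1% lower, with a median of -0.28.

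Among 6 tested antagonists and modulators of 20 listed, 3 were called higher and 3 lower, with a median log2 change of 0.063. Besides Grem1, the rises were those of Sost, which encodes sclerostin, a bone cell product best known for blocking Wnt signals, and Kcp, a kielin/chordin-like protein. Sost was at 0.61, 0.52 and 0.5 in Noggin-deficient libraries, against 0.36 and 0.2 in the wild type libraries, a log2 change of 0.60. It met the minimum value only through its Noggin-deficient libraries, as Nog did only through its wild type ones, so neither count of 3 is free of the filter. Kcp averaged 5.98 ± 0.145 (SD, n = 3) in Noggin-deficient and 4.58 ± 0.233 (SD, n = 2) in wild type libraries, a change of 0.37. The chordin-like antagonist Chrdl1 fell to 1.96 ± 0.070 (SD, n = 3) in Noggin-deficient libraries, against 2.67 ± 0.078 (SD, n = 2) in wild type libraries, a change of -0.40. Chrdl1 was not called with median-of-ratios scaling (-0.15, limma adjusted p = 0.069). It was called with upper-quartile scaling (-0.22, adjusted p = 0.016) and with length adjustment (-0.20, adjusted p = 0.026). Vwc2, which encodes brorin, had a change of -0.24 (limma adjusted p = 0.045), and -0.034 (adjusted p = 0.80) under median-of-ratios scaling. Its call was also lost without any 1 of the Noggin-deficient libraries (-0.25, -0.26 and -0.21, with adjusted p = 0.065, 0.060 and 0.10 without replicates 1, 2 and 3) and without wild type replicate 2 (-0.15, adjusted p = 0.30). Sost and Kcp kept their calls under each scaling, and Sost lost its call without wild type replicate 2 (0.38, limma adjusted p = 0.059). For genes that were higher, median-of-ratios and upper-quartile scaling kept the direction by construction, as for Grem1. Bone had 6 of 10 listed markers in the tables, 5 called higher and 1, Col1a1, lower, with none at 0. Over all tested genes 37.9% were called higher and 60.1% lower. The sums of all 6 ran from 3223 to 3236 in Noggin-deficient and from 4173 to 4264 in wild type libraries, nearly all of it Col1a1, and those of the other 5 from 111.5 to 115.8 in Noggin-deficient and from 79.2 to 83.2 in wild type libraries. The part of bone in the Sost value was not tested.

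Of 4 tested ligands of 20 listed symbols, Bmp3b and Gdf10 being the same gene, 3 were called lower and 1 higher, with a median of -0.29. Bmp8a, a ligand close to Bmp7, was at 0.54, 0.57 and 0.62 in Noggin-deficient libraries, against 1.2 and 1.07 in the wild type libraries. Its log2 change of -0.74 was the largest in size among the 4, and it was called under each scaling, at -0.53 under median-of-ratios scaling. Gdf10, also known as BMP3B, went the other way, with 22.46, 23.4 and 21.91 in the Noggin-deficient libraries, against 17.58 and 16.92 in the wild type libraries, a change of 0.38 that was 0.65 under median-of-ratios scaling. Gdf5, a ligand of joint formation that was below the minimum for testing and was picked after its values were seen, had 0.27, 0.3 and 0.39 in the Noggin-deficient libraries, against 0.48 and 0.48 in the wild type libraries.

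Receptors and co-receptors were mostly lower in the deposited unit: of 8 tested of 16 listed, 7 were called lower and 1 higher, with a median of -0.37, and 4 were called lower under median-of-ratios scaling, where the median was -0.10. Bmpr1b, a type I receptor, was at 1.96, 1.63 and 1.64 in Noggin-deficient libraries, against 3.01 and 2.7 in the wild type libraries, a log2 change of -0.64. Bmpr2, the type II BMP receptor, was at 7.58, 7.35 and 7.3 against 10.46 and 10.49 in wild type, a change of -0.49. With median-of-ratios scaling it was -0.22 (limma adjusted p = 0.0009), and with length adjustment -0.044 (adjusted p = 0.31). Acvr1b, an activin type I receptor, had a change of -0.40. Eng, an endothelial co-receptor, was the 1 that rose, by 0.46, and was called under each scaling. Median-of-ratios and upper-quartile scaling kept its direction by construction. Of 8 listed endothelial markers only Eng itself and Cldn5 were in the tables, both called higher, as were 37.9% of all tested genes. The part of endothelium in the Eng value was not tested. Hfe2, which encodes hemojuvelin of the same family as RGMB and was picked after its values were seen, had 40.53, 38.97 and 40.89 in the Noggin-deficient libraries, against 51.62 and 50.27 in the wild type libraries. Its change of -0.34 lay near that of Rgmb. Hfe2 was not called with median-of-ratios scaling (-0.071, limma adjusted p = 0.076) but was with upper-quartile scaling (-0.14, adjusted p = 0.0043). With length adjustment Hfe2 was at -0.44 (adjusted p = 2.1e-06), where Rgmb was at -0.11. Skeletal muscle, where Hfe2 is expressed, had 9 of 10 tested markers called lower, beside 60.1% of all tested genes. The part of muscle in the Hfe2 value was not tested.

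Only 2 of 16 listed genes of BMP processing and extracellular handling were in the tables. Fbn1, whose product fibrillin 1 builds the microfibrils that hold BMP complexes, had a log2 change of -0.48, and Pcsk6, a protease that matures BMP precursors, one of -0.26. Under median-of-ratios scaling Fbn1 was at -0.21 (limma adjusted p = 0.00019) and Pcsk6 turned to 0.011 (adjusted p = 0.80), and with length adjustment neither was called.

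Genes that respond to BMP signalling were mostly higher. Of 11 tested of 18 listed, 10 were called higher and 1 lower, with a median of 0.53. Over all tested genes 37.9% were called higher and 60.1% lower, with a median of -0.28. The 1 called lower was Gata3, with a log2 change of -0.60. The same counts were found with both scalings and with length adjustment, where 38.6%, 38.5% and 35.2% of all tested genes were called higher. Both scalings moved the median of all tested genes up. Genes that were higher therefore kept their direction under them by construction. Msx1, Hand1 and Smad9 met the minimum value only through the Noggin-deficient libraries and could be called only by being higher, and of the other 8, 7 were called higher and 1 lower. The homeobox gene Msx1 was at 1.96, 2.06 and 2.44 in Noggin-deficient libraries, against 0.43 and 0.39 in the wild type libraries, a log2 change of 1.86. Its relative Msx2 had a change of 1.27. Hand2, a basic helix-loop-helix gene, had a change of 1.06. Its relative Hand1 was near 0 in wild type libraries, at 0.59, 0.58 and 0.54 in Noggin-deficient and 0.01 and 0.02 in wild type libraries, so its change of 1.63 is set by the pseudocount and was 3.26 with a pseudocount of 0.05 and 0.63 with 1. Distal limb markers, which include Msx1 and Msx2, and neuronal markers, a tissue that also uses Hand1 and Hand2, were higher in the same libraries, and their part in these values was not tested.

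**Figure D4:**
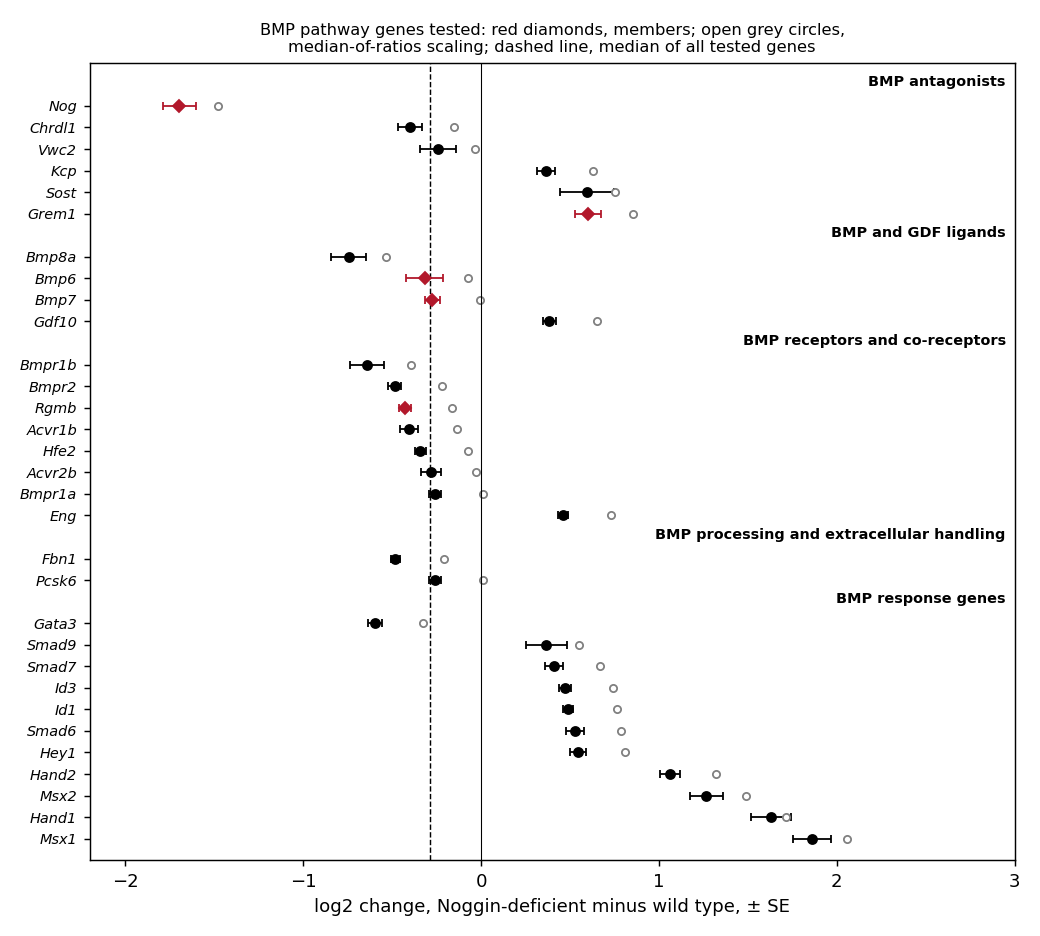
Log2 change with SE (horizontal axis), Noggin-deficient minus wild type, of the 31 tested pathway genes by list, with members as red diamonds and open grey circles for median-of-ratios scaling. Antagonists go both ways, receptors other than Eng lie left of 0 in the deposited unit and move toward 0 under that scaling, and the response genes other than Gata3 lie right of 0.

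The listed values summed to 92210 to 93695 per Noggin-deficient library and to 100792 to 102783 per wild type library, and the number of reads behind them is unknown. The muscle label was checked on 16 markers, of which 10 were in the tables, with none at 0. Of these, 9 were called lower and 1 higher, beside 60.1% and 37.9% of all tested genes. The sums of the 10 ran from 3906 to 4083 in Noggin-deficient and from 5600 to 5649 in wild type libraries. Markers of liver, blood and fat were also present and higher in Noggin-deficient libraries. Liver markers summed to 95.3 to 96.0, against 1.28 to 1.45 in wild type libraries. Erythroid markers summed to 217.3 to 223.7, against 93.1 to 97.9, and fat markers to 194.52 to 200.15, against 82.88 to 85.82. Of 8 tested liver markers, 7 met the minimum value only through Noggin-deficient libraries, as did the erythroid Epb4.2 and the fat markers Plin1 and Cidec. The liver genes Serpina1a, Fgb, Fga and Ahsg were at 0 in some library.

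**Figure D5:**
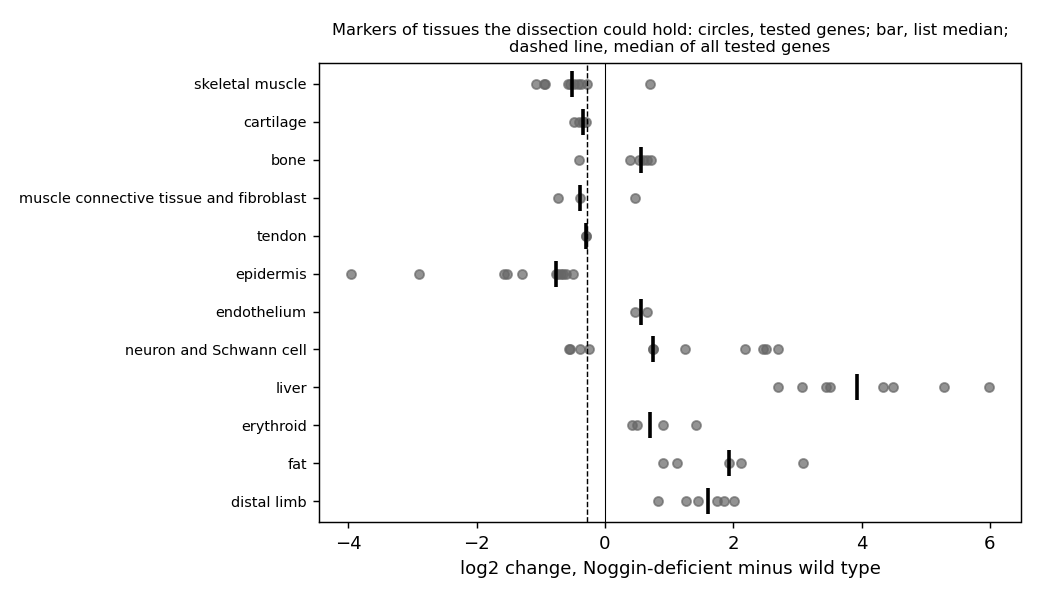
Log2 change (horizontal axis), Noggin-deficient minus wild type, of each tested marker of 12 tissues, with a bar at each list's median and a dashed line at the median of all tested genes. Epidermis lies left of 0, distal limb and liver lie right of it, and muscle lies mostly left.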

How the data were processed

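RNA was isolated with a Qiagen micro kit and made into stranded mRNA libraries, per the labels' protocols. STAR 2.4.2a, DESeq2 and build mm9 are named, without a role, in the submitters' processing notes. The authors deposited 1 non-negative expression signal per gene and library, and neither the unit nor the rule that selected the genes is given in the sources used here. Because values are decimals, no count test was run, depth is unknown and levels were not compared between genes. A minimum value of 0.5 in 2 or more libraries left 3913 of 4743 genes for limma 3.58.1 in R 4.3.3. It was run with an intensity trend on log2(value + 0.25), as the difference between Noggin-deficient and wild type libraries, with Benjamini-Hochberg adjustment over all tested genes and a call at an adjusted p under 0.05. No library pair shared more than 3.92% identical values. Length adjustment subtracted a loess curve of the log2 change on the longest GENCODE transcript, known for 4462 genes. The members, lists and alternatives were chosen with earlier results of these data known. Besides the members, up to 4 called genes with the largest absolute change were named per list, and the 3 nearest profiles per member, leaving out genes known only by an identifier.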

Additional observations from a re-analysis of the deposited data

How the results depend on the processing

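The change of Nog kept its direction and call under the 12 other settings in which it was tested, from -2.05 with a pseudocount of 0.05 to -1.05 with a pseudocount of 1. It had no value with a minimum of 1 in all libraries or without a wild type library, where it missed the filter. With no filter, a combination chosen after seeing the data, it was -1.69 and -1.70 without wild type replicate 1 and 2. Against a 1.5-fold change the adjusted p of Grem1 (0.60), Bmp6 (-0.32), Bmp7 (-0.27) and Rgmb (-0.43) was 1.0 each, and 569 genes passed in place of 3836. Median-of-ratios scaling gave -0.071 for Bmp6 and -0.0070 for Bmp7, upper-quartile scaling -0.13 and -0.075, and length adjustment -0.16 for Bmp6, each without a call. Leaving out 1 library gave 0.53 to 0.67 for Grem1, -0.44 to -0.19 for Bmp6, -0.30 to -0.25 for Bmp7, -0.43 to -0.42 for Rgmb, -1.74 to -1.67 for Nog and 3458 to 3767 calls.

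Medians of the antagonist, ligand, receptor, processing and response lists were 0.30, -0.0070, -0.10, -0.10 and 0.79 under median-of-ratios scaling, 0.24, -0.075, -0.17, -0.17 and 0.72 under upper-quartile scaling, and 0.21, -0.14, -0.14, -0.040 and 0.63 with length adjustment. With no minimum value the antagonist median turned to -0.24 and it was 0.37 with a minimum of 1 in all libraries, where the response median was 0.49. The response list was at 0.48 with a pseudocount of 1. Without 1 library the medians ran from 0.044 to 0.42, -0.36 to -0.23, -0.40 to -0.35, -0.38 to -0.36 and 0.51 to 0.56. Calls in the antagonist list were 1 lower under median-of-ratios scaling, with a minimum of 1 and against a 1.5-fold change, with 0 higher in the last, and 2 to 3 higher and 1 to 2 lower without 1 library. Ligands called higher were 2 with no filter and under both scalings, and 0 against a 1.5-fold change; those called lower were 1 under both scalings, 0 against that change and 2 to 3 without 1 library. Receptors had 2 called higher with no filter, 4 lower under median-of-ratios scaling, and 0 either way against a 1.5-fold change. Processing genes called lower were 1 under both scalings, and 0 with length adjustment and against a 1.5-fold change. Response genes called higher were 6 with a minimum of 1, 4 against a 1.5-fold change, where 0 were lower, and 9 to 10 without 1 library. Pcsk6 turned to 0.011 and Svil to 0.0043 under median-of-ratios scaling, and Maml3 to 0.0999 and Svil to 0.11 with length adjustment. The cause of these shifts was not tested.

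With the replicate number as a block, which leaves Noggin-deficient replicate 3 with no partner and so without weight, the changes were -1.67 for Nog, 0.65 for Grem1, -0.39 for Bmp6, -0.25 for Bmp7 and -0.43 for Rgmb, with 3772 calls. The call of Vwc2 was lost (adjusted p = 0.12). The differences between replicates 1 and 2 in the Noggin-deficient and wild type groups correlated at -0.11 across 3913 genes, which gave no sign of pairing by number. With so few libraries, this check cannot exclude a shared litter or batch.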
